A study of Danio rerio with 2 samples.

Results

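The bile acid feedback circuit was followed through 6 genes: the nuclear receptor genes nr0b2a, nr5a2 and nr1h4, the synthesis enzyme gene cyp7a1, and the transporter genes abcb11b and slc10a2. They were picked by symbol from the 23809 genes of the deposited table. Of the 6, 5 matched the table's symbol, and cyp7a1 was found under its RefSeq synonym cyp7a1a. The genes were chosen with the large ratio of nr0b2a already known, so that ratio is given as a description.

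RNA came from whole zebrafish embryos at 3 days post fertilization in 2 libraries. One pool of 40 embryos had been exposed to the triazole fungicide cyproconazole at 20 µM, starting 4 hours after fertilization and lasting until collection, and the other pool of 40 was the untreated control. Embryos of both groups had the genotype SAGFF(LF)53A mitfab692/+, which is a Gal4 trap line and 1 copy of a mutant allele of the pigment cell regulator mitfa. Each group is 1 pooled library, so no difference has a replicate check and none was tested: every ratio compares these libraries. The whole reads behind the table summed in genes to 20723669 for the cyproconazole library and 18064965 for the control library. Beside a read ratio stands its 95% exact binomial interval, which covers counting error only.

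Bile salts are made from cholesterol in the liver, pumped into bile, taken up again in the gut and returned to the liver. The receptor Fxr, encoded by nr1h4, senses them. In mouse and human liver, active Fxr switches on the gene for Shp, encoded here by nr0b2a, an unusual nuclear receptor that has no DNA-binding domain and represses its partners. One partner is Lrh-1, encoded by nr5a2, which activates the mammalian Cyp7a1 gene. Cyp7a1 is the rate-limiting enzyme of bile acid synthesis, so Shp closes a feedback loop. Abcb11 proteins export bile salts across the canalicular membrane of hepatocytes, and Slc10a2 takes bile salts up from the gut lumen. Zebrafish bile holds mainly a sulphated bile alcohol.

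The repressor gene nr0b2a was 2.83-fold higher in the cyproconazole library, and the read ratios of the other 5 genes were below 1. Of these, cyp7a1 was the lowest, at 0.230 of the control. The read ratio was 0.504 for abcb11b, 0.543 for slc10a2, 0.658 for nr1h4 and 0.850 for nr5a2. The counting interval lay above 1 for 1 gene and below 1 for 4 genes, and it included 1 for slc10a2. Among all 18632 genes with at least 50 reads over both libraries, the interval lay above 1 for 15.8% and below 1 for 14.5%.

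**Figure D1:**
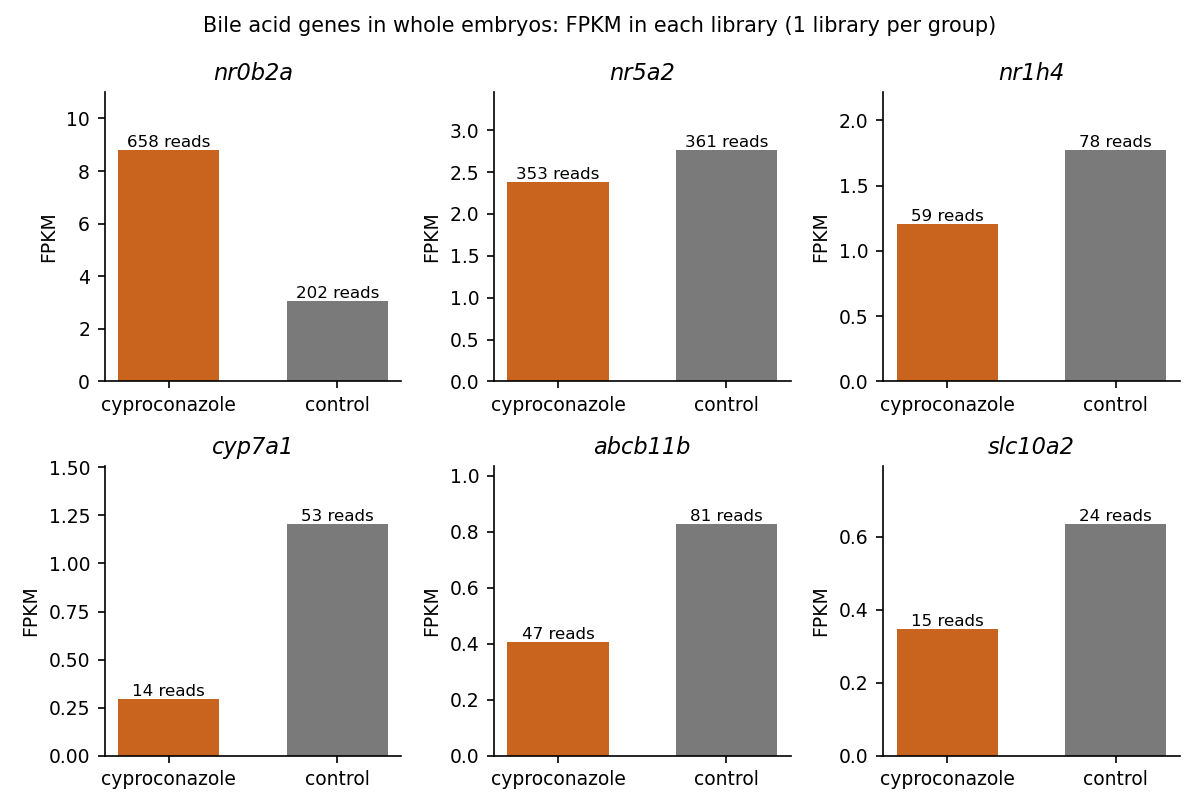
FPKM (fragments per kilobase, scaled to library depth) of the 6 genes in the cyproconazole library (orange) and the control library (grey), with recovered reads above each bar and an axis from 0 for each gene. The bar of nr0b2a is higher in the cyproconazole library (8.80 against 3.05 FPKM), and those of the other 5 genes are lower.

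The gene nr0b2a (ENSDARG00000044685) had 8.80 FPKM in the cyproconazole library and 3.05 FPKM in the control library. These values rest on 658 reads in the cyproconazole library and 202 reads in the control library, a read ratio of 2.83 (2.41 to 3.33). On the log2(FPKM + 1) scale, which understates the change of low genes, the difference was 1.28. Its level stood above that of 59% of the compared genes in the cyproconazole library and of 26% in the control library.

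By read ratio nr0b2a was 20th from the top among the 18632 genes. The scatter of genes of like depth gives a measure of how far apart ratios lie in these libraries. Of 4312 genes whose reads were within 1.5-fold of those of nr0b2a, 3 including nr0b2a had a ratio as high, and the central 95% lay between 0.730 and 1.37. This band and those below were chosen after the values were seen, and the genes were picked with earlier results known. A gene's place in its band is therefore a description and no test.

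Among genes with a conventional symbol and at least 200 reads, nr0b2a was 9th of 11819. Directly above it stood dhrs3b, hoxb5b and hoxb6b, with read ratios of 3.17, 3.12 and 3.06. Directly below it stood hoxb5a at 2.73, lyve1a at 2.71 and pbx1b at 2.57. This likeness rests on 2 libraries only. The counting intervals of all 6 neighbours overlap that of nr0b2a, so the order among these 7 genes is within counting error.

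The paralog nr0b2b (ENSDARG00000102756) was hardly seen. It had 0 reads in the cyproconazole library and 2 reads in the control library, where the limit that a count of 0 allows is 3 reads per library. No ratio is given for it. Nearly all the Shp-type transcript in these embryos was therefore listed under nr0b2a.

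The partner gene nr5a2 (ENSDARG00000100940) had 2.38 FPKM in the cyproconazole library and 2.77 FPKM in the control library. With 353 reads in the cyproconazole library and 361 in the control library, its read ratio was 0.850 (0.732 to 0.987) and its log2(FPKM + 1) difference was -0.16. The interval ends just under 1. The ratio lay inside the central 95% of genes of like depth, which was 0.710 to 1.37 over 4342 genes.

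Per length, nr0b2a and nr5a2 were at similar levels in the control library and not in the cyproconazole library. The FPKM of nr0b2a was 3.70 times that of nr5a2 in the cyproconazole library and 1.102 times in the control library. Against nr1h4, it was 7.28 times in the cyproconazole library and 1.72 times in the control library. Of the FPKM summed over the 6 genes, nr0b2a held 65.5% in the cyproconazole library and 29.7% in the control library.

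The bile acid receptor gene nr1h4 (ENSDARG00000057741) had 1.21 FPKM in the cyproconazole library and 1.77 FPKM in the control library. It had 59 reads in the cyproconazole library and 78 in the control library, a read ratio of 0.658 (0.461 to 0.934) and a log2(FPKM + 1) difference of -0.33. This describes the nr1h4 transcript only: the activity of Fxr was not measured, and its part in the nr0b2a ratio was not tested. The nr1h4 ratio lay inside the central 95% of 2537 genes of like depth, 0.560 to 1.74. Its relative nr1h5, picked out once its value was known, had 46 reads in the cyproconazole library and 40 in the control library. The interval of its ratio, 0.640 to 1.57, was centred near 1.

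**Figure D2:**
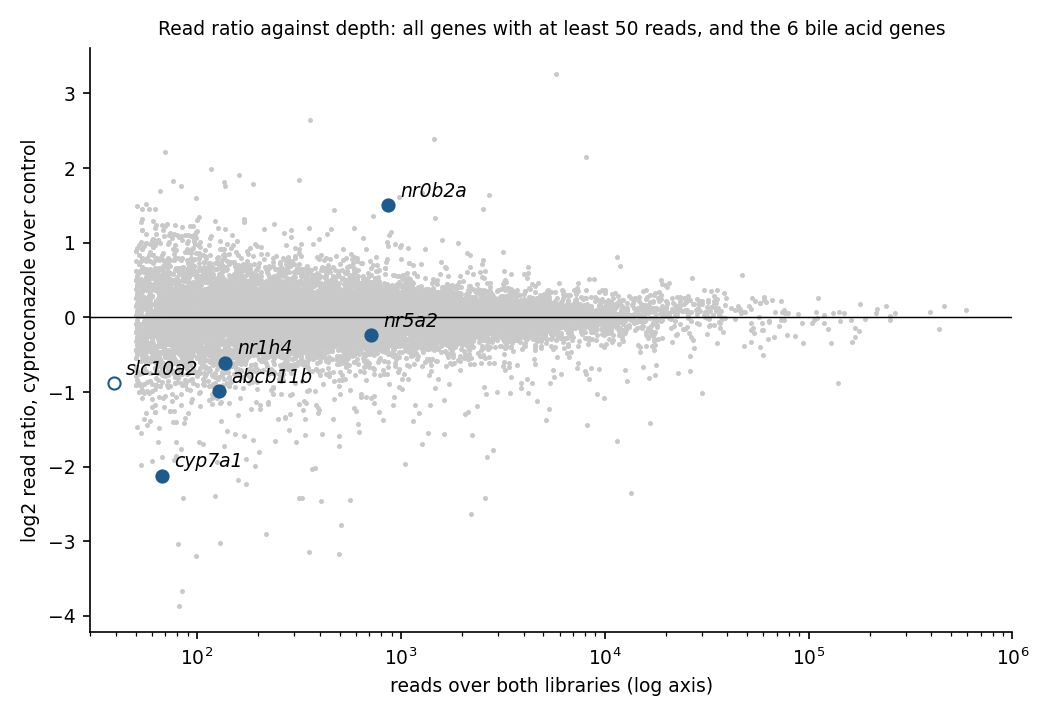
Log2 read ratio of the cyproconazole over the control library (vertical axis) against reads over both libraries (horizontal log axis) for every gene with at least 50 reads (grey) and the 6 bile acid genes (blue; the open circle is slc10a2, with 39 reads). The spread of all genes widens towards low reads, and nr0b2a and cyp7a1 stand at its upper and lower edges.

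The enzyme gene cyp7a1 (ENSDARG00000069018) was the lowest of the 6. It had 0.296 FPKM in the cyproconazole library and 1.205 FPKM in the control library. The reads were 14 in the cyproconazole library and 53 in the control library, a read ratio of 0.230 (0.118 to 0.420). Few genes had a ratio this low: it was 21st from the bottom of the 18632. Of 1907 genes of like depth, 7 including cyp7a1 had a ratio as low, and the central 95% lay between 0.476 and 2.14. The log2(FPKM + 1) difference was -0.77, since an added value of 1 exceeds the level of cyp7a1 in the cyproconazole library.

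The export pump gene abcb11b (ENSDARG00000070078) had 0.407 FPKM in the cyproconazole library and 0.827 FPKM in the control library. Its 47 reads in the cyproconazole library and 81 in the control library gave a ratio of 0.504 (0.344 to 0.731) and a log2(FPKM + 1) difference of -0.38. This ratio lay below the central 95% of 2454 genes of like depth, 0.554 to 1.79. The paralog abcb11a (ENSDARG00000011573) had 1.04 FPKM in the cyproconazole library and 1.28 FPKM in the control library, and 102 and 118 reads in the same order. Its read ratio of 0.751 (0.571 to 0.988) was nearer to 1, and the intervals of both paralogs overlap. Reads shared by these paralogs could not be told apart here.

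The uptake carrier gene slc10a2 (ENSDARG00000014916) had 0.348 FPKM in the cyproconazole library and 0.635 FPKM in the control library. With 15 reads in the cyproconazole library and 24 in the control library, its ratio of 0.543 (0.265 to 1.08) was not distinguishable from 1 at this depth. Starting from 24 control reads, only a ratio of 0.471 or less, or of 1.70 or more, would have an interval that leaves out 1. It did not reach the minimum of 50 reads and was left out of the counts by list. The log2(FPKM + 1) difference was -0.28.

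Of the other 5 genes, which passed that minimum, nr0b2a passed 1.5-fold on the higher side of the log2(FPKM + 1) scale and cyp7a1 on the lower side, which is 1 gene each way. Over all 18620 genes compared on this scale, 1.58% passed 1.5-fold on the higher side and 1.71% on the lower side. The genes were chosen for this contrast, so their share is not read against those percentages. In FPKM, the order in the control library was nr0b2a, nr5a2, nr1h4, cyp7a1, abcb11b and slc10a2. The order in the cyproconazole library was nr0b2a, nr5a2, nr1h4, abcb11b, slc10a2 and cyp7a1. Levels of the last 3 genes rest on 14 to 47 reads in the cyproconazole library, and their order there is within counting error.

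**Figure D3:**
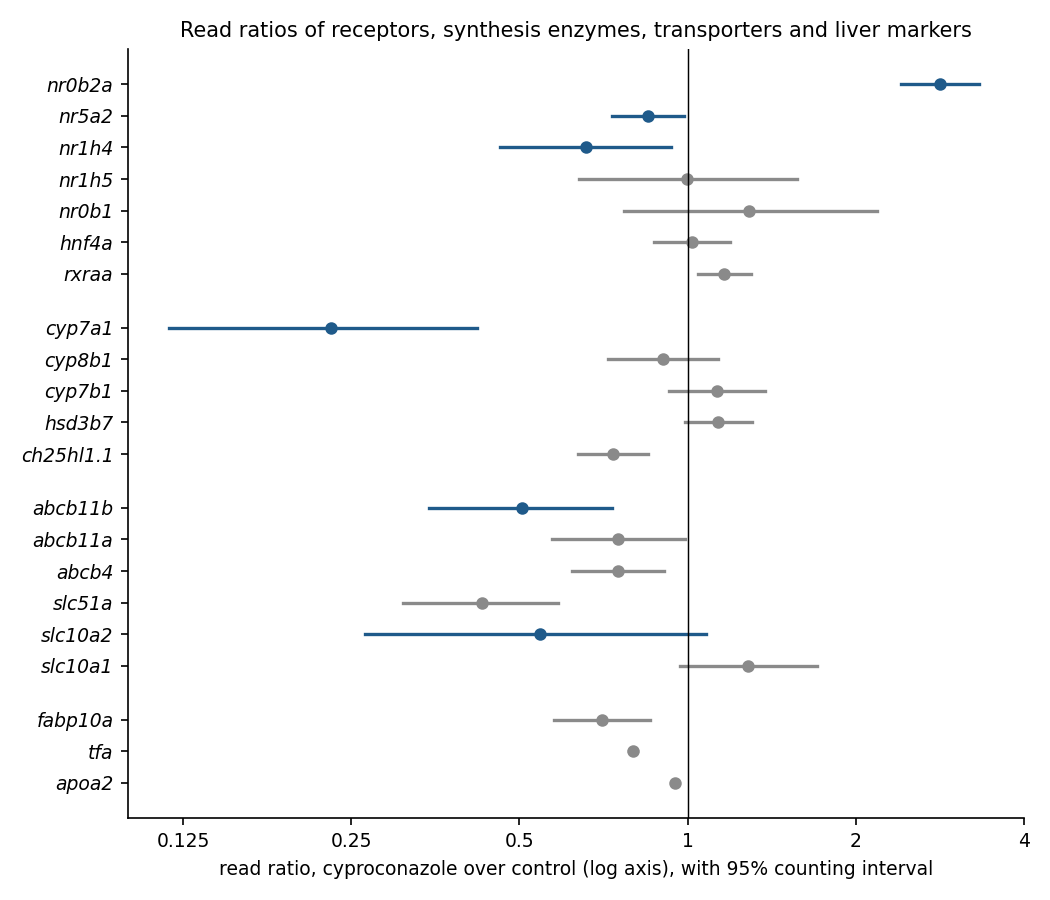
Read ratios of the cyproconazole over the control library (log axis) with 95% counting intervals for a selection of receptor genes, synthesis enzymes, transporters and liver markers, from top to bottom, with the 6 bile acid genes in blue. The interval of nr0b2a (2.41 to 3.33) lies right of the others in this selection, which leaves out abcg2d and slc10a4. That of cyp7a1 (0.118 to 0.420) lies left of 1.

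Beyond the 6 genes, the pathway was described with 4 lists that together held 97 genes of the table, 78 of them measured with at least 50 reads. The lists overlap, since nr0b2a, cyp7a1 and the Abcb11 genes are on more than 1. Over the 78 genes, 2 passed 1.5-fold on the higher side and 2 on the lower side, which is 2.56% each way. Over all genes compared, 1.58% were higher and 1.71% lower. Without the 6 chosen genes, 73 were left, with 1 higher (hnf1bb) and 1 lower (slc51a). The median log2(FPKM + 1) difference was 0.02 over the 78 genes and 0.02 over all genes compared.

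Most receptors and partner factors were close to a ratio of 1. Of 27 measured, nr0b2a and hnf1bb, 2 in all, passed 1.5-fold on the higher side and 0 on the lower side. The shares over all genes compared were 1.58% and 1.71%. The list's median was 0.11. By reads, the interval lay above 1 for 8 genes and below 1 for 3, against 15.8% and 14.5% of all genes.

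The homeobox factor gene hnf1bb, which acts in liver and kidney formation, had 2.28 FPKM in the cyproconazole library and 1.099 FPKM in the control library, a read ratio of 1.57 (1.196 to 2.06). The vitamin D receptor gene vdrb had a read ratio of 1.294 (1.11 to 1.51). The retinoid X receptor genes, whose products pair with Fxr, stood at 1.34 (1.08 to 1.67) for rxrga and 1.15 (1.06 to 1.24) for rxrba. For hnf4a, a main regulator of hepatocyte genes picked out once its value was known, FPKM and reads were apart. It had 6.18 FPKM in the cyproconazole library and 4.40 FPKM in the control library, but 350 and 299 reads in the same order, a ratio of 1.02 (0.869 to 1.19).

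Enzymes of bile acid synthesis other than cyp7a1 showed no shift of that size. Of 22 measured, 0 passed 1.5-fold on the higher side and 1, cyp7a1, on the lower side, and the median was -0.04. The shares over all genes compared were 1.58% and 1.71%. The interval included 1 for 15 of them.

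The next genes by interval were ch25hl1.1, a cholesterol hydroxylase, with 15.2 FPKM in the cyproconazole library and 20.5 FPKM in the control library and a read ratio of 0.736 (0.637 to 0.851). The sulphotransferase genes sult2st2 and sult2st3 had 0.761 (0.637 to 0.909) and 0.671 (0.473 to 0.949), and they may share reads with each other. The hydroxylase gene cyp46a1.2 had 1.44 (1.06 to 1.97). For genes further along the pathway, picked out once their values were known, the interval included 1: cyp8b1, the sterol hydroxylase gene, had 0.903 (0.720 to 1.13). The dehydrogenase gene hsd3b7 had 1.14 (0.988 to 1.31). The interval of cyp7b1, the first enzyme of the alternative route from oxysterols, was 0.925 to 1.38 around a ratio of 1.13.

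Genes of the bile transport list went in both directions. The list takes in genes of transporter families, whether or not each protein carries bile salts. It also holds the lipid binding protein genes fabp1b.1, fabp10a and fabp10b. Of 22 list genes measured, 0 passed 1.5-fold on the higher side and 1 on the lower side of the log2(FPKM + 1) scale. The median was 0.03. The shares over all genes on that scale were 1.58% and 1.71%. By reads the median was -0.01, and 3 passed 1.5-fold on the higher side and 2 on the lower side, against 2.86% and 3.13% of all genes. The interval lay below 1 for 8 genes and above 1 for 4, against 14.5% and 15.8% of all genes.

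The lower gene on both scales was slc51a, a subunit of the basolateral exporter that passes bile salts from gut cells to blood. It had 1.59 FPKM in the cyproconazole library and 3.69 FPKM in the control library, from 61 and 124 reads in the same order, and a ratio of 0.428 (0.309 to 0.586). The gene abcb4, whose mammalian counterpart encodes a phospholipid floppase beside Abcb11 at the canalicular membrane, had 0.752 (0.622 to 0.908). Higher by reads were the transporter gene abcg2d at 2.44 (1.36 to 4.63), with 45 reads in the cyproconazole library and 16 in the control library, and slc10a4 at 1.89 (1.29 to 2.80). The third, the binding protein gene fabp10b, picked out once its value was known, had 1.55 (0.987 to 2.47). The abundant lipid binding gene fabp1b.1 had 398 FPKM in the cyproconazole library and 307 FPKM in the control library, a ratio of 1.291 (1.22 to 1.37). The liver uptake carrier gene slc10a1, picked out likewise, had 1.28 (0.969 to 1.71).

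The list of genes known in mammals as targets or parts of the feedback by Fxr and Shp held 15 measured genes. It mixes genes that the feedback raises with genes that it lowers. A median over the list therefore has no single direction to be read against, and the state of the feedback was not tested. Of the 15 genes, 1 passed 1.5-fold on the higher side (nr0b2a) and 2 on the lower side (cyp7a1 and slc51a). The median was -0.11, or -0.03 by reads. Over all genes compared, 1.58% were higher and 1.71% lower, and nr0b2a and cyp7a1 are among the 6 chosen genes. Without the 6 chosen genes the median was -0.09 over 12 genes, with 0 higher and 1 lower. By reads the interval lay above 1 for 3 of the 15 genes (nr0b2a, srebf1 and fetub), against 15.8% of all genes. It lay below 1 for 6 (cyp7a1, slc51a, abcb11b, abcb11a, abcb4 and fgfr4), against 14.5% of all genes. The interval included 1 for the other 6, with cyp8b1 among them. The lipid synthesis regulator gene srebf1, which Shp lowers in mouse liver, had a ratio of 1.37 (1.16 to 1.63), and fetub, a secreted liver protein gene, had 1.177 (1.15 to 1.203).

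The gut hormone gene fgf19, which in mammals carries the Fxr signal from gut to liver, had 3 reads in the cyproconazole library and 2 in the control library, too few for a ratio. The bile salt binding gene fabp6 had 4 reads in the cyproconazole library and 1 in the control library, a ratio of 3.48 (0.344 to 171). For the receptor of that hormone, fgfr4, the ratio was 0.939 (0.891 to 0.990), and for its co-receptor klb it was 1.01 (0.721 to 1.42). All 4 were picked out once their values were known.

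**Figure D4:**
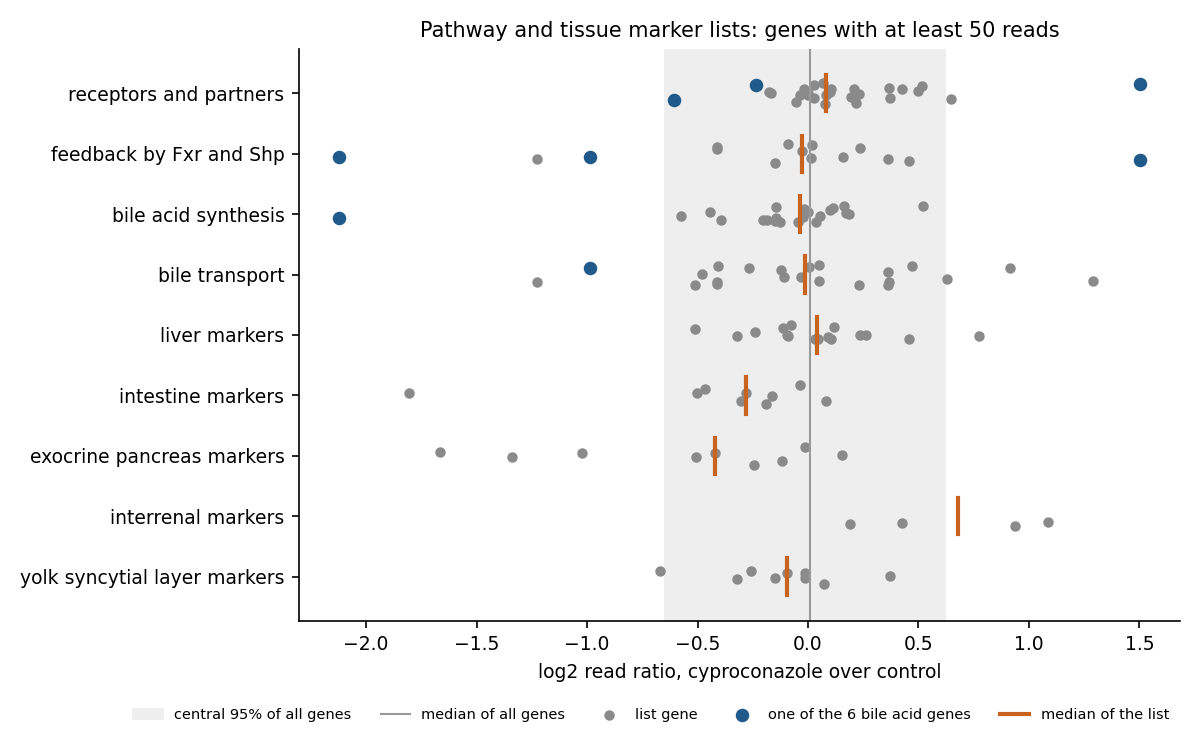
Log2 read ratio of each gene with at least 50 reads (points) by pathway or tissue marker list, with the list median (orange bar), the median of all genes (grey line) and the central 95% of all genes (shaded). The 6 bile acid genes are blue, and most other pathway genes lie in the shaded band. The intestine and exocrine pancreas medians lie furthest left of the line, and the interrenal median, of 4 genes, lies right of the shaded band.

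Markers of some, but not all, of the tissues that use these genes also differed, and their part in the results was not tested. In whole embryos, fewer cells of a type and less RNA per cell cannot be told apart. Summed liver markers were close to even: over 17 genes the FPKM was 7292 in the cyproconazole library and 7616 in the control library. Most of each sum was apoa2, with 4613 FPKM in the cyproconazole library and 4777 FPKM in the control library. The sums thus say little about the other markers. Of 16 liver markers measured, 1 passed 1.5-fold on the higher side and 0 on the lower side. The median was -0.02, or 0.04 by reads, and none was listed at 0. The shares over all genes compared were 1.58% higher and 1.71% lower. By reads the interval lay above 1 for 7 genes and below 1 for 6, against 15.8% and 14.5% of all genes. The gene past 1.5-fold was hpx, for a heme-binding plasma protein, with 13.2 FPKM in the cyproconazole library and 7.64 FPKM in the control library and a read ratio of 1.71 (1.4997 to 1.96). The most abundant were apoa2, rbp4 and tfa, with read ratios of 0.949, 0.936 and 0.799. The hepatocyte marker fabp10a, picked out once its value was known, had 41.7 FPKM in the cyproconazole library and 60.3 FPKM in the control library and a ratio of 0.702 (0.575 to 0.856), the lowest of the 16. The upper end of the cyp7a1 interval, 0.420, was below the lower end of that for fabp10a, and the abcb11b interval overlapped that of fabp10a. These intervals cover counting error only, and the part of liver cell number in either ratio was not tested.

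Intestine markers summed to 714 FPKM in the cyproconazole library and 767 FPKM in the control library over 17 genes. Of 9 measured, 0 passed 1.5-fold on the higher side and 2 (apoa4a and vil1) on the lower side, with a median of -0.20 and none listed at 0. For this and the pancreas list, the shares over all genes compared were 1.58% higher and 1.71% lower. By reads, 0 intestine markers passed 1.5-fold on the higher side and 1 (apoa4a) on the lower side, against 2.86% and 3.13% of all genes. The read ratio of vil1 was 0.723 (0.641 to 0.815), which is not past 1.5-fold. The most abundant, apoa4b.1, apoa4b.2 and fabp2, had read ratios of 0.974, 0.893 and 0.810. Exocrine pancreas markers, from a tissue that is known to use nr5a2, summed to 55.7 FPKM in the cyproconazole library and 79.0 FPKM in the control library over 17 genes. Of 9 measured, 3 passed 1.5-fold on the lower side and 0 on the higher side, the median was -0.39, or -0.07 without the minimum of 50 reads, and ela2l was listed at 0 in the cyproconazole library. The most abundant, prss1, ctrb1 and prss59.2, had read ratios of 0.748, 0.395 and 0.493. The paralog prss59.1, picked out once its value was known, went the other way. It had 35 reads in the cyproconazole library and 10 in the control library, below the minimum of 50, and a ratio of 3.04 (1.47 to 6.89). Reads shared by prss59.1 and prss59.2 could not be told apart here.

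Yolk syncytial layer markers summed to 4349 FPKM in the cyproconazole library and 4502 FPKM in the control library over 10 genes. Of 9 measured, 0 passed 1.5-fold on the higher side and 1 (apoea) on the lower side, with a median of -0.07. For this and the interrenal list, the shares over all genes compared were 1.58% higher and 1.71% lower. Among them apoa1b had a read ratio of 1.05, apoc1 0.937 and tfa, which the liver list also holds, 0.799. Interrenal markers, from the steroid-making cells that use other Nr5a and Nr0b genes, went the other way from the gut and pancreas lists. They summed to 17.87 FPKM in the cyproconazole library and 12.04 FPKM in the control library over 10 genes. Of 4 measured, 1 passed 1.5-fold on the higher side and 0 on the lower side, with a median of 0.30, or 0.68 by reads. The most abundant, star, cyp17a1 and hsd3b1, had read ratios of 1.91, 1.14 and 1.34.

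Within its own gene family, nr0b2a stood at the top of the genes with at least 50 reads. That minimum left out nr5a1b, which had 37 reads and a ratio of 4.49 (1.85 to 13.2). Of 61 nuclear receptor genes with at least 50 reads, recognised by the table's symbols in a grouping chosen after the values were seen, nr0b2a had the highest read ratio. Its interval (2.41 to 3.33) overlapped those of esrrgb at 2.17 (1.23 to 3.99) and nr6a1b at 1.97 (1.51 to 2.57). At the other end, nr1h4 was 60th of 61, above the clock repressor gene nr1d1 at 0.539 (0.439 to 0.659). The nr1h4 interval, 0.461 to 0.934, overlapped those of nr1d1 and nr5a2, so its exact place is within counting error. The gene nr5a2 was 54th. Of the 61, 4 passed 1.5-fold by reads on the higher side and 3 on the lower side, against 2.86% and 3.13% of all genes, and the median log2 read ratio was 0.04. The related gene nr0b1, which encodes the Nr0b receptor Dax1, had 1.288 (0.771 to 2.18).

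**Figure D5:**
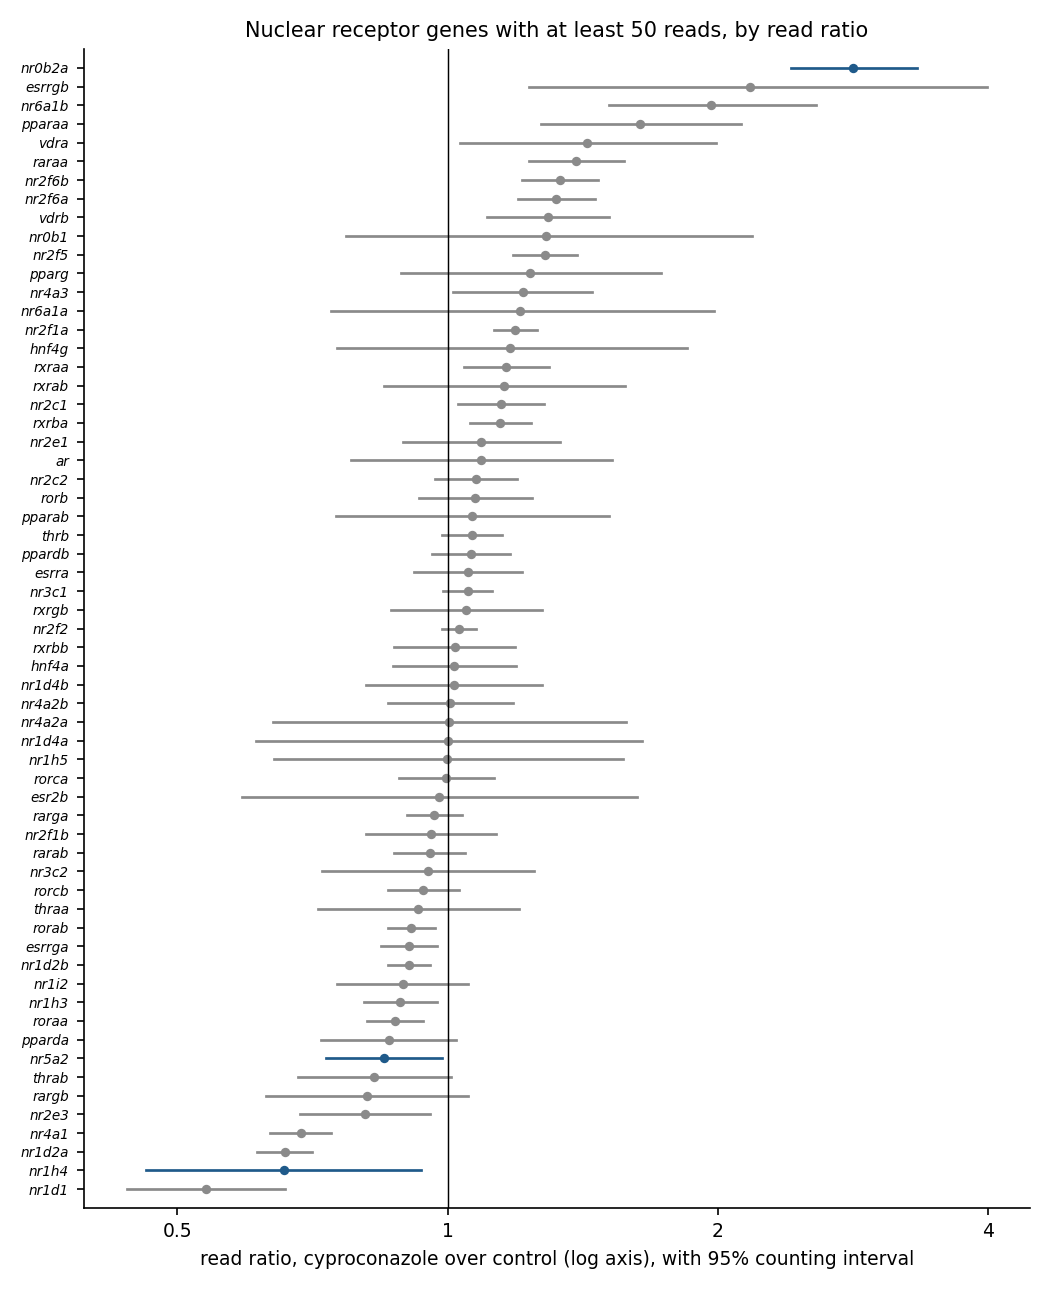
Read ratios of the cyproconazole over the control library (log axis) with 95% counting intervals for 61 nuclear receptor genes with at least 50 reads, sorted by ratio, with nr0b2a, nr5a2 and nr1h4 in blue. The gene nr0b2a is at the top (2.83), and nr5a2 (0.850) and nr1h4 (0.658) are near the bottom.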

How the data were processed

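The authors deposited 1 table. Per the file headers it holds an FPKM value per gene and library, the mean normalized count of both libraries (a signal), and the authors' own log2 ratio, its error, their quotient (a score) and an unadjusted p-value. The submitters' processing notes name the build GRCz10 and, with no role or order, Cufflinks 2.1.1, HTSeq 0.6.1, Picard 1.29, SAMtools and TopHat2 2.0.4. The sources used here give neither annotation nor strand setting.

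Counts were assumed in the plan; with FPKM deposited, values were compared as differences of log2(FPKM + 1), as planned for that case, beside ratios of recovered whole reads. Each mean count is a whole multiple of 1 step (largest deviation 0.0059 steps), with control and cyproconazole reads worth 68 and 59 steps. Where only 1 read pair was possible (7180 genes), it was kept without a further check. Otherwise the pair was kept whose standard error in a shrunken negative binomial fit matched the deposited one within 1e-05. The next pair had to be at least 10 times further off. This gave reads for 23789 genes (99.9%), and was tested on simulated data. For nr0b2a 13 pairs were possible, for nr5a2 12, for cyp7a1 and slc10a2 1. Read ratios were scaled by TMM, a trimmed mean of log ratios (30% of ratios and 5% of levels trimmed), in Python 3.11.15, NumPy 2.4.6, pandas 2.3.3 and SciPy 1.17.1. Genes at 0 FPKM (555) were left out of FPKM comparisons.

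The genes and lists were chosen with earlier results of these data known. Named genes are the 6, 2 paralogs, list genes past 1.5-fold, up to 4 more per pathway list by the interval bound nearest to 1, the 3 most abundant markers per list and the 3 neighbours of nr0b2a each side; others are marked. Lists named more genes than the table held, and absent ones were not analysed here.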

Additional observations from a re-analysis of the deposited data

How the results depend on the processing

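No paired analysis was possible because there is only 1 library in each group, and no library could be left out. Of 157 alternative values, 117 stayed within counting error or, for a count, within 1.5 times it. The error of a list's median was taken from its genes' median half-interval and their number, by a rule chosen after the values were seen. The log2 ratio of cyp7a1 was -0.77 on log2(FPKM + 1), and -2.12, -2.13 and -2.12 by recovered reads with TMM scaling, deposited size factors and total reads, and -1.72 with 0.1 added. That of abcb11b was -0.38, and -0.99, -0.99 and -0.98 by reads with the same scalings. A smaller added value or none enlarges the ratios of such low genes by construction.

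Of synthesis genes at least 1.5-fold lower, 1 became 0 with at least 200 reads or a 2-fold threshold. Of bile transport genes, 0 higher became 3 by reads under each of the 3 scalings and 1 with 0.1 added. On the lower side, 1 became 2 by reads, 3 with 0.1 added, and 0 with at least 200 reads or a 2-fold threshold. Of receptors, 2 higher became 1 at 2-fold, and 0 lower became 1 by reads. Of the feedback genes, 2 lower became 4 with 0.1 added and 0 with at least 200 reads or at 2-fold. A higher minimum leaves out cyp7a1, slc51a and abcb11b, which have under 200 reads.

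Of 63 values of list medians, 7 changed sign, and of 30 values of the 6 genes 0 did. For a single gene, a smaller added value cannot change the sign, and the 3 read scalings gave nearly the same ratio. The 0 therefore says little. The liver median, -0.02, was 0.0399, 0.0372 and 0.0440 by reads under the 3 scalings. The transport median, 0.0337, was -0.0141, -0.0168 and -0.0101 by reads, and -0.0894 with at least 200 reads. That of receptors was 0.11, and 0.18 with 0.1 added. The pancreas median was -0.39, and -0.0689 with no minimum of reads. The interrenal median of 4 genes was 0.30, and 0.6806, 0.6779 and 0.6847 by reads. That of yolk layer genes was -0.0659, and -0.0936, -0.0963 and -0.0896 by reads, -0.0873 centred on the median gene and -0.0303 with no minimum. The cause was not tested.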

Other observations

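The authors' deposited table orders these genes otherwise. There nr0b2a has a shrunken log2 ratio of 0.08 with a standard error of 0.08 and is 2344th of 23809 by p-value, while its log2 read ratio was 1.502. In the authors' deposited table cyp7a1 has -0.19 with a standard error of 0.10 and is 191st, and its log2 read ratio was -2.12. The dispersion that gives the deposited values in the fit used here was 0.451 for nr0b2a, 0.272 for slc10a2 and 0.226 for cyp7a1. It was 0.102 for abcb11b, 0.0859 for nr1h4 and 0.0214 for nr5a2. With 1 library per group, this dispersion is no measure of spread between replicates.

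The gene nr5a1b, a relative of nr5a2 picked out once its value was known, had 31 reads in the cyproconazole library and 6 in the control library, a read ratio of 4.49 (1.85 to 13.2), below the minimum of 50 reads. The interrenal genes cyp11c1 and cyp11a2, picked out likewise, had ratios of 2.12 (1.34 to 3.46) and 2.35 (1.101 to 5.43). The interrenal list did not move as 1: cyp21a2 had 0.909 (0.484 to 1.71) and nr5a1a 1.19 (0.509 to 2.85). Of these genes cyp11a2, cyp21a2 and nr5a1a, with 37, 45 and 26 reads, were below the minimum of 50.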
